A study of Mus musculus with 6 samples.

Results

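The miR-99/100 and miR-125 families are small groups of microRNAs whose genes lie in shared clusters of the mouse genome. The members were taken by name: every mature strand of mmu-miR-99a, mmu-miR-99b, mmu-miR-100, mmu-miR-125a and mmu-miR-125b in the deposited table, which gave 10 of its 535 mature names, on 11 of its 792 rows. A mature microRNA is cut from a hairpin precursor, and the strands of its left and right sides are called the 5p and the 3p arm. One arm is usually loaded into an Argonaute protein, where its bases 2 to 8, the seed, pair with messenger RNAs and lower their output. miR-125 is the vertebrate counterpart of worm lin-4, a timing microRNA that acts with let-7, and both act on Lin28, a block on let-7 maturation. The miR-99/100 family is known for acting on the mTOR and insulin-like growth factor pathways, and Lin28 and let-7 are known to set when nephron progenitors are used up.

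Small RNA was sequenced from nephron progenitors (MNP, 3 libraries) and whole kidney (MWK, 3 libraries) of CD1 mouse embryos at embryonic day 15.5. Nephron progenitors, the mesenchymal cells that give rise to the nephron, were enriched by removing cells that carry CD140a, CD105, Epcam or Ter119 with magnetic beads. The whole kidney samples were the remnant kidneys left after the limited digestion that released those cells, and each replicate was pooled from 1 litter. Per the study's methods the samples of both groups came from 3 litters, and which libraries share a litter is not given in the sources used here. RNA was purified with a Micro kit for nephron progenitors and a Mini kit for whole kidney, so the effects of group, kit and isolation cannot be told apart. MNP6 and MWK6 are column names that fit no single title; they were used for their group, with no replicate number. The progenitor label could not be checked here against protein-coding markers such as Six2 and Cited1, since the counts hold microRNAs only. The study measured both by qPCR, which was not analysed here. With one value per mature name, the libraries held 393951 counts in MNP1, 436112 in MNP2, 333850 in MNP6, 349241 in MWK1, 360221 in MWK2 and 355848 in MWK6, the order used for values throughout. Levels are counts scaled by TMM to one common total (CPM), and 3 counts correspond to between 6.54 and 9.45 CPM, a floor that covers counting error only.

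All 10 arms were above the filter of more than 10 counts over the 6 libraries. In nephron progenitors 8 of the 10 arms were higher at an adjusted p of 0.05 in edgeR's quasi-likelihood test, where 19.4% of all 525 tested microRNAs were called higher. None was lower by edgeR, DESeq2 or limma-voom, where edgeR called 17.1% of all tested microRNAs lower, and no arm had a negative log2 fold change at any p. In 9 of the 10 arms every nephron progenitor library lay above every whole kidney library, against 23.4% of all tested microRNAs. The median log2 fold change of the arms was 1.02, beside -0.01 over all 525. These are bulk samples, in which fewer cells of a type and less RNA per cell cannot be told apart. The count of arms called higher was 5 in the 4 numbered libraries with the replicate number as a block, and 6 there when the block was dropped. Over all 487 microRNAs tested in those libraries, 71 were called higher with the block and 58 when it was dropped.

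The arms of the chromosome 9 cluster had the largest fold changes of the members. miR-100-5p stood at 13751 CPM in MNP1, 20419 in MNP2 and 28221 in MNP6, against 5518 CPM in MWK1, 6014 in MWK2 and 6319 in MWK6. It was lowest among the nephron progenitor libraries in MNP1 and highest in MNP6, and the groups did not overlap. The means were 20797 ± 7242 and 5951 ± 405 CPM (SD, n = 3 each), 3.49-fold higher in nephron progenitors. miR-125b-5p, which is made from both the chromosome 9 and the chromosome 16 hairpin, stood at 6295, 8248 and 10819 CPM in the same progenitor libraries against 2679, 2758 and 2805 CPM. It was again lowest in MNP1 and highest in MNP6 among the nephron progenitor libraries, while the whole kidney libraries lay close together and below all of them. The 3p arm of the chromosome 9 miR-125b hairpin, miR-125b-1-3p, was at 278, 377 and 478 CPM against 84.2, 129 and 114 CPM. It showed the same order of nephron progenitor libraries, with no overlap between groups, and a 3.46-fold difference of means. The log2 fold change of miR-100-5p was 1.81 with an adjusted p of 3.1e-05 in edgeR's quasi-likelihood test, and it was between 1.48 and 2.04 with any 1 library left out.

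**Figure D1:**
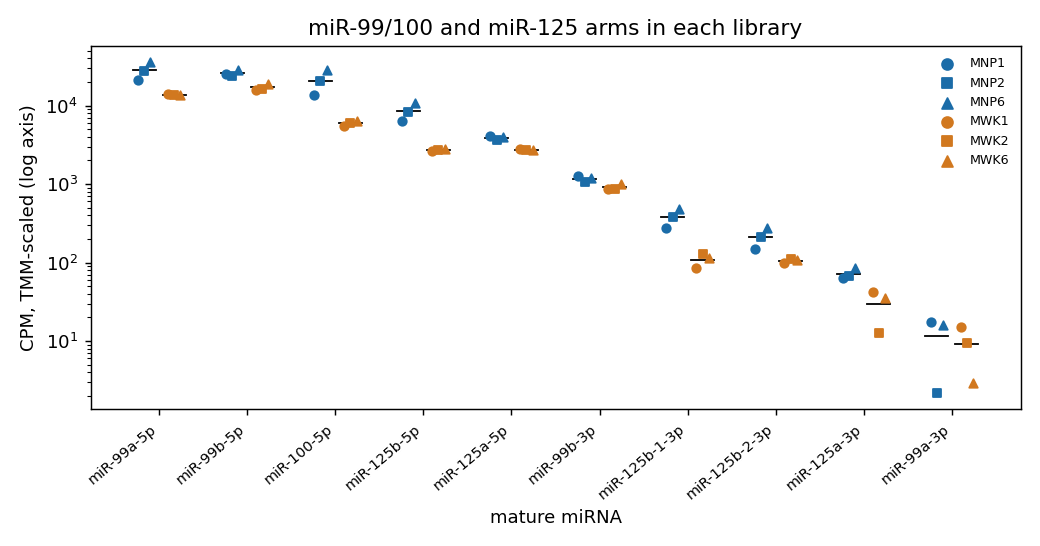
CPM of each of the 10 arms in each library on a log axis, ordered by mean level in nephron progenitors; symbols are libraries, blue for nephron progenitors and orange for whole kidney, and black lines are group means. The groups overlap for miR-99a-3p, the arm with the fewest counts, and for no other arm.

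The called arms of the chromosome 16 cluster alone had smaller fold changes. miR-99a-5p was at 21198 CPM in MNP1, 27910 in MNP2 and 35545 in MNP6, against 13908 CPM in MWK1, 13826 in MWK2 and 13716 in MWK6. Its nephron progenitor libraries again ran from MNP1, the lowest, to MNP6, the highest, and all lay above whole kidney. Its mean was 28218 ± 7178 against 13817 ± 96.2 CPM (SD, n = 3 each), and the log2 fold change was 1.03, with a standard error of 0.17 and an adjusted p of 4.2e-04 in edgeR. miR-125b-2-3p, the 3p arm of the chromosome 16 miR-125b hairpin, was at 150, 209 and 279 CPM against 99.2, 110 and 108 CPM. Its lowest nephron progenitor library, MNP1, was above the highest whole kidney library. Its 2.01-fold difference of means passed the threshold in edgeR, but had an adjusted p of 0.059 without MWK1. In the 4 numbered libraries it was 0.052 in edgeR with the replicate block and 0.085 without it. miR-99a-3p held 7, 1 and 6 counts in nephron progenitors and 5, 3 and 1 in whole kidney. The groups overlapped, and at this depth no difference was detectable for this arm (log2 fold change 0.31, standard error 0.78, adjusted p 0.81 in edgeR); its sign turned without MNP1 and without MWK6, to -0.10 each.

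Among the 5p arms, those of the chromosome 17 cluster had the smallest fold changes. miR-99b-5p was at 25283 CPM in MNP1, 23815 in MNP2 and 28292 in MNP6, against 16052 CPM in MWK1, 16295 in MWK2 and 19064 in MWK6. MNP1 was not its lowest nephron progenitor library, and the groups did not overlap. Its log2 fold change was 0.59 (standard error 0.14), with an adjusted p of 0.0041 in edgeR. miR-125a-5p stood at 4053, 3608 and 3989 CPM in progenitors against 2767, 2721 and 2688 CPM. MNP1 was its highest library, and again no nephron progenitor library reached down to whole kidney. Its log2 fold change was 0.51 with an adjusted p of 0.016 in edgeR, and the call was lost without MWK1 (adjusted p 0.066), without MWK2 (adjusted p 0.067) and in the 4 numbered libraries with the replicate block (adjusted p 0.06), but not in those 4 without it (adjusted p 0.05). miR-99b-3p was at 1261, 1074 and 1188 CPM against 866, 853 and 1010 CPM. Its groups did not overlap, yet its log2 fold change of 0.37 was not past the threshold (adjusted p 0.13 in edgeR). With library totals in place of TMM, which moved the median log2 fold change of all tested microRNAs to 0.19 and the calls from 102 higher and 90 lower to 121 and 74, it was 0.57 and past the threshold. miR-125a-3p held 26, 31 and 32 counts in nephron progenitors and 14, 4 and 12 in whole kidney, so every nephron progenitor library was above whole kidney. Its log2 fold change was 1.24, and its adjusted p in edgeR moved from 0.016 to 0.055 without MNP6, and to 0.078 without MWK2. In the 4 numbered libraries it was 0.11 in edgeR with the replicate block and 0.14 without it.

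In order of level, the 5p arms in nephron progenitors ran miR-99a-5p, miR-99b-5p, miR-100-5p, miR-125b-5p and miR-125a-5p, at ranks 5, 6, 10, 22 and 41 of the tested microRNAs by mean CPM. There miR-100-5p was below miR-99a-5p and miR-99b-5p in each library, while miR-99a-5p was below miR-99b-5p in MNP1 and above it in MNP2 and MNP6. In whole kidney the order was miR-99b-5p, miR-99a-5p, miR-100-5p, miR-125b-5p and miR-125a-5p, at ranks 14, 16, 28, 49 and 50. There the miR-125 arms, at 2748 ± 63.6 and 2725 ± 39.3 CPM (SD, n = 3 each), were within their spread. Counts of different microRNAs are compared here as read counts of molecules of near equal length. How evenly the library preparation captured different sequences was not tested. This order, and the shares of sums given below, are therefore of reads and not of molecules.

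The mature sequences are shown because the families are defined by them and because arms that differ by 1 base can share reads. All 10 members were matched by name to RefSeq (GRCm38.p6), and the seed is in capitals. The miR-99/100 5p arms share one seed.
miR-99a-5p: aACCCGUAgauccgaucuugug
miR-100-5p: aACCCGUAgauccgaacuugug
miR-99b-5p: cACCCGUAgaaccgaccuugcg
Counted from 1 at the 5′ end, miR-99a-5p and miR-100-5p differ by U16A alone, while miR-99a-5p differs from miR-99b-5p by A1C, U11A, U16C and U21C. The miR-125 5p arms share another seed, which in the counts is also held by miR-351-5p.
miR-125a-5p: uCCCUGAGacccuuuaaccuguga
miR-125b-5p: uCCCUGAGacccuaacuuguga
miR-351-5p: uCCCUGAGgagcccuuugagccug
The miR-125 arms share their first 13 bases, and each shares its first 8 with miR-351-5p. The 3p arms of the miR-125b hairpins differ in their seeds, so they tell the hairpins apart where the 5p arm cannot.
miR-125b-1-3p: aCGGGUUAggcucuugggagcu
miR-125b-2-3p: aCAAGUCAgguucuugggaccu
The split between miR-99a-5p and miR-100-5p is uncertain where the authors' counting could divide shared reads.

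Summed over the miR-99/100 seed, the level was 60231, 72144 and 92057 CPM in nephron progenitors against 35477, 36136 and 39099 CPM in whole kidney, a 2.03-fold difference of means described without a test. miR-100-5p gave 27.3% ± 4.02 of the progenitor sum against 16.1% ± 0.546 of the whole kidney sum (SD, n = 3 each). miR-99b-5p gave 35.2% ± 5.94 against 46.4% ± 2.07. miR-99a-5p gave 37.5% in both groups. The miR-125 5p arms summed to 12337 ± 2269 CPM in progenitors against 5473 ± 24.4 CPM, a 2.25-fold difference. In whole kidney miR-125a-5p and miR-125b-5p shared this sum about equally, while in nephron progenitors miR-125b-5p held 67.8% ± 6.3 of it. miR-351-5p, an X-linked relative with the same seed, lay the other way, at 3779, 4483 and 6233 CPM against 8053, 7819 and 7662 CPM. All its nephron progenitor libraries were below whole kidney, with MNP1 again the lowest. Its log2 fold change was -0.70 (adjusted p 0.0082 in edgeR; 0.055 without MWK1 and 0.082 with library totals). With miR-351-5p added, the seed summed to 17169 ± 3531 CPM against 13317 ± 172 CPM, 1.29-fold higher. The log2 ratio of this sum was 0.37, and it was 0.19 without MNP6 and 0.58 with library totals. The share of miR-351-5p was 27.9% ± 1.5 of the progenitor sum and 58.9% ± 0.713 of the whole kidney sum. All 10 arms together took 7.46% of the counts in MNP1, 9.02% in MNP2 and 12.4% in MNP6, against 4.0%, 3.77% and 4.42% in the whole kidney libraries.

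Whether related arms changed by unequal amounts was read from their ratio within a library, which does not depend on scaling. Of 8 ratios, 5 did not overlap between groups, beside 67.8% of all pairs of microRNAs with a mean of at least 100 CPM, so that count is no result about the members. Each of the 5 had an exact two-sided permutation p of 0.1, the smallest that 3 against 3 libraries can give. miR-100-5p per miR-99a-5p was 0.649, 0.732 and 0.794 in nephron progenitors against 0.397, 0.435 and 0.461. miR-125b-5p per miR-125a-5p was 1.55, 2.29 and 2.71 against 0.968, 1.01 and 1.04. Both ratios were lowest in MNP1 among the nephron progenitor libraries, as was miR-100-5p per miR-99b-5p, at 0.544, 0.857 and 0.997 against 0.344, 0.369 and 0.332. miR-125b-5p per miR-99a-5p varied little within a group, at 0.297, 0.296 and 0.304 against 0.193, 0.2 and 0.205. These arms share the chromosome 16 cluster, but miR-125b-5p is also made on chromosome 9. The ratios in the next sentence also pair arms that share a cluster. Their log2 values had an SD of 0.13 and 0.09 in nephron progenitors, against 0.02 for miR-125b-5p per miR-99a-5p. miR-125b-5p per miR-100-5p (0.458, 0.404 and 0.383 against 0.486, 0.459 and 0.444) and miR-125a-5p per miR-99b-5p (0.16, 0.152 and 0.141 against 0.172, 0.167 and 0.141) overlapped between groups, with exact permutation p of 0.2 and 0.4. The ratio of miR-99a-5p to miR-99b-5p also overlapped, since MNP1 lay among the whole kidney libraries.

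**Figure D2:**
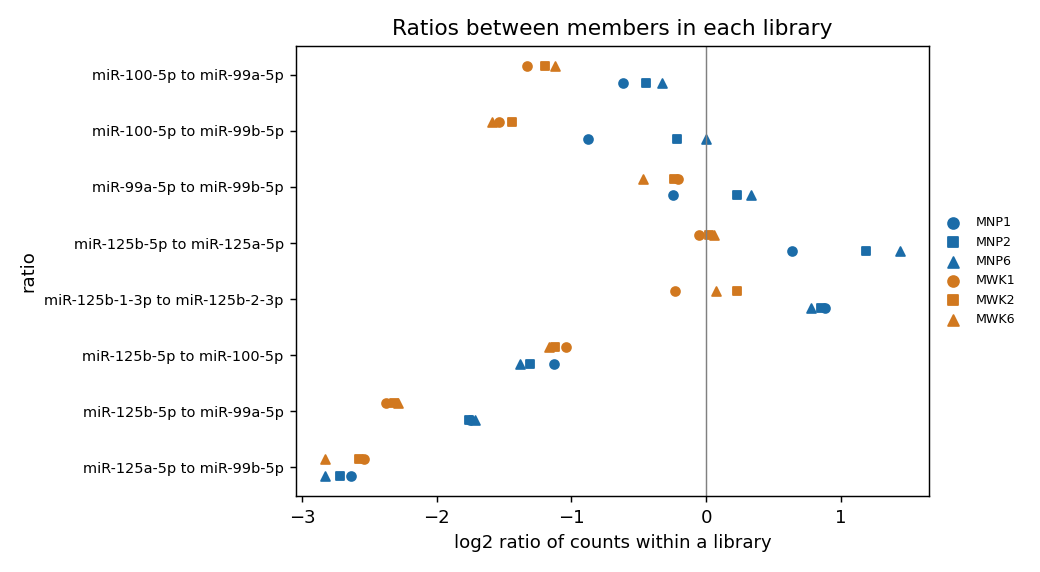
Log2 ratios of counts (0.5 added to each) between members within each library, 1 line per ratio; blue symbols are nephron progenitor libraries and orange symbols whole kidney libraries. The groups are apart in 5 of the 8 ratios and overlap in the other 3.

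The miR-125b hairpins were told apart by their 3p arms. mir-125b-1, on chromosome 9, gave 64.9%, 64.3% and 63.2% of miR-125b 3p counts in the progenitor libraries against 45.9%, 53.9% and 51.3% in whole kidney. The log2 ratio of miR-125b-1-3p to miR-125b-2-3p was 0.81 higher in nephron progenitors (exact permutation p = 0.1). The ratio of 5p to 3p counts was then tested in limma over 193 precursors with both arms, of which 12.4% differed between groups at an adjusted p of 0.05. mir-100 could not be tested, since its 3p arm is not in the counts. Of the 5 member precursors tested, mir-125b-2 passed. It had 40.1, 37.7 and 37.1 5p counts per 3p count in nephron progenitors and 25.7, 23.3 and 24.7 in whole kidney. The groups did not overlap, and the log2 difference was 0.64 (95% interval 0.24 to 1.04, adjusted p 0.035 in limma). Its 5p reads are shared with mir-125b-1, so the ratio follows both hairpins. The call was lost with each of the 6 libraries left out, at a difference between 0.60 and 0.67. The log2 difference was -0.18 for mir-125b-1 (interval -0.58 to 0.22), 0.22 for mir-99b (-0.06 to 0.50) and 0.88 for mir-99a (-0.83 to 2.58). For mir-125a it was -0.85 (-1.65 to -0.06), with an adjusted p of 0.18 in limma. The values of mir-125a and mir-99a rest on few 3p counts: mir-125a moved to -0.36 without MWK2, which held 4, and mir-99a to 0.05 without MNP2, which held 1.

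The hairpins of the members lie in 3 clusters, given here on mm10, all on the plus strand. On chromosome 9, mir-100 (41531425 to 41531504) and mir-125b-1 (41581926 to 41582002) are 50421 bases apart, with let-7a-2 between them, in introns of the noncoding transcripts 3110039I08Rik and Gm49317. mir-100 also overlaps an exon of the antisense transcript Gm48742, and mir-125b-1 an exon of the sense intronic transcript Gm28119. On chromosome 16, mir-99a (77598936 to 77599000) and mir-125b-2 (77646273 to 77646343) are 47272 bases apart in an intron of Mir99ahg, with let-7c-1 656 bases after mir-99a. mir-99a and let-7c-1 also lie in an intron of the antisense gene Gm11146, and mir-125b-2 also overlaps an exon of C130023A14Rik. On chromosome 17, mir-99b (17830188 to 17830257), let-7e and mir-125a (17830812 to 17830879) lie in Spaca6, with 554 bases between the outer hairpins and mir-125a overlapping an exon.

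**Figure D3:**
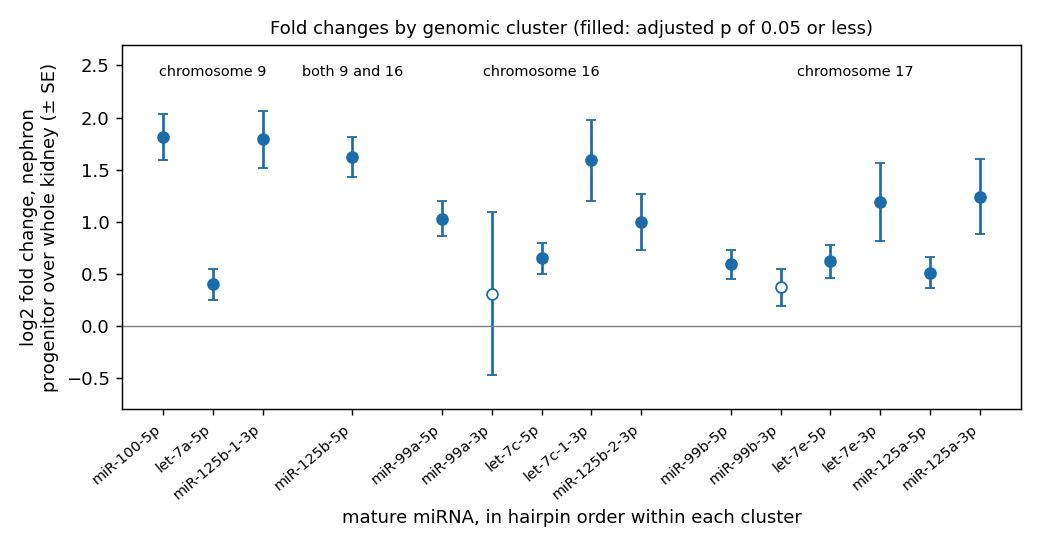
Log2 fold change of nephron progenitors over whole kidney, with its standard error from edgeR, for the members and the let-7 arms between them, in hairpin order within each cluster (let-7a-5p and let-7c-5p are also made elsewhere); filled points had an adjusted p of 0.05 or less. miR-100-5p is highest at 1.81, and miR-99a-3p and miR-99b-3p are the open points.

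The let-7 arms of the same clusters were counted by direction. Of 6 listed, 5 were in the table and all 5 were higher in edgeR, beside 19.4% of all tested microRNAs, with a median log2 fold change of 0.65. DESeq2 called 3 of them, in a fit that called 86 of 525 microRNAs higher. With 1 library left out 3 or 4 were called, in fits that called from 75 of 508 to 109 of 510 higher. let-7a-5p stood at 17077 CPM in MNP1, 14186 in MNP2 and 12892 in MNP6, against 11391, 11427 and 10651 CPM in whole kidney. Here MNP1 was the highest nephron progenitor library, the reverse of miR-100-5p in the same cluster, and let-7a-5p is also made from a further hairpin elsewhere. Its log2 fold change of 0.40 had an adjusted p of 0.047 in edgeR, and 5 of the 6 libraries, all but MNP6, each ended the call when left out (adjusted p 0.086 to 0.13). let-7c-5p was at 8782, 7350 and 7355 CPM against 5380, 5010 and 4597 CPM, again highest in MNP1 and with no overlap, and like let-7a-5p it is also listed for a hairpin outside the cluster. let-7e-5p, from the chromosome 17 cluster, was at 3459, 2880 and 3022 CPM against 2027, 1959 and 2105 CPM, with no overlap. Its 3p arm, let-7e-3p, held 20, 16 and 24 counts against 8, 7 and 6, and that of the chromosome 16 hairpin, let-7c-1-3p, 19, 21 and 14 against 6, 5 and 3. The groups of both were apart, but let-7e-3p lost its call without MNP6 (adjusted p 0.075), MWK1 (0.053), MWK2 (0.067) or MWK6 (0.074) in edgeR. In the 4 numbered libraries its adjusted p was 0.12 in edgeR with the replicate block and 0.13 without it. Of 8 listed relatives in seed or sequence, 6 were in the table, and miR-351-5p alone was lower in edgeR, a share near the 17.1% of all tested microRNAs. miR-10a-5p, which shares a run of 11 bases with miR-100-5p, was at 234663, 209586 and 161835 CPM against 223290, 254595 and 236667 CPM. Its groups overlapped through MNP1, and without MNP1 edgeR called it, miR-10a-3p and miR-10b-5p lower beside miR-351-5p, in a fit that called 102 of 510 microRNAs lower. miR-10b-5p was at 100498, 82749 and 74216 CPM against 98894, 103710 and 100639 CPM, again overlapping through MNP1. The 3p arms of miR-351, miR-10a and miR-10b had edgeR adjusted p from 0.15 to 0.68.

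Markers of other cell types, skeletal muscle among them, were read in the same libraries. All 5 epithelial markers were lower in nephron progenitors in edgeR, summing to 214, 366 and 86.7 CPM against 23365, 24832 and 21253 CPM in whole kidney. miR-200a-3p was the most abundant, and miR-141-3p was at 0 in every nephron progenitor library. Both endothelial markers, led by miR-126a-3p, were lower, summing to 419, 595 and 578 CPM against 20132, 21311 and 18150 CPM. All 3 erythroid markers, led by miR-486a-5p in nephron progenitors and miR-451a in whole kidney, were lower, at 372, 266 and 171 CPM against 1431, 1414 and 741 CPM. Of 5 markers of stroma and smooth muscle, 2 were lower, miR-143-3p, the most abundant, and miR-145a-5p; the list summed to 33782, 45277 and 46056 CPM against 73673, 85327 and 70886 CPM. The 3 others were not past the threshold, and of these miR-199a-5p was at 5389, 7927 and 10535 CPM against 5909, 5882 and 6299 CPM. miR-214-3p was at 332, 457 and 604 CPM against 322, 475 and 438 CPM. Among progenitor libraries both, and miR-199a-3p (6692, 8664 and 9192 CPM), were lowest in MNP1 and highest in MNP6, like miR-100-5p, miR-125b-5p and miR-99a-5p. The other markers of that list did not follow this order: miR-143-3p (21270, 28093 and 25624 CPM) and miR-145a-5p (98.5, 135 and 99.9 CPM) were highest in MNP2. The 4 leukocyte markers, led by miR-142a-3p in nephron progenitors and miR-142a-5p in whole kidney, had edgeR adjusted p from 0.26 to 0.89 and summed to 126, 135 and 52.6 CPM against 87.2, 101 and 61.3 CPM. Of 3 skeletal muscle markers, miR-206-3p was higher in edgeR, on 76, 129 and 25 counts against 0, 5 and 1. It was the most abundant of them by mean CPM in nephron progenitors and miR-1a-3p in whole kidney, and the list summed to 300, 438 and 131 CPM against 66.2, 113 and 61.3 CPM. miR-141-3p was the only listed marker at 0 in all libraries of a group. The part of these markers in the members' differences was not tested.

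The microRNAs outside the families whose profiles over the 6 libraries were nearest to each 5p arm were found next. Nearness was the root mean square distance of log2 CPM, each profile centred on its mean, among microRNAs with a mean of at least 100 CPM. For miR-100-5p the nearest were miR-411-3p and miR-323-3p (0.09 each) and miR-379-5p (0.12), with miR-125b-5p also at 0.12. For miR-125b-5p they were miR-379-5p (0.14), miR-323-3p (0.16) and miR-127-3p (0.17), all farther than the member miR-100-5p at 0.12. For miR-99a-5p they were miR-541-5p (0.17), miR-615-3p (0.18) and miR-199b-5p (0.19), with miR-99b-5p the nearest member at 0.28. miR-99b-5p lay nearest to miR-669c-5p (0.07), miR-674-3p (0.11) and let-7e-5p (0.12), and to the member miR-125a-5p at 0.11. miR-125a-5p lay nearest to miR-181a-5p and let-7e-5p (0.08 each) and miR-674-3p (0.09), with the member miR-99b-5p at 0.11.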

How the data were processed

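Per the labels and the study's methods, the authors aligned small RNA reads to mm10 and counted known miRNAs with miRDeep2; the labels also name Bowtie2 2.2.3, BWA and DESeq2 1.18.1. They deposited expected counts, not normalized, for each mature miRNA and precursor. All were rounded to whole numbers; 3 of 792 rows hold fractions. For each mature name the highest count over its rows was kept in each library. miRNAs with a sum above 10 over the 6 libraries were tested with edgeR 4.0.16 (quasi-likelihood, TMM, Benjamini-Hochberg over 525 miRNAs, threshold 0.05); standard errors are log2 fold changes over the square root of F. Ratios of 5p to 3p used limma 3.58.1 on log2 values with 0.5 added, and ratios between members an exact permutation test. R was 4.3.3. Alternatives were DESeq2 1.42.0, limma-voom, other scalings and filters, the mean over rows, leaving out the 10 most abundant miRNAs or each library, and a replicate block. Libraries held 333850 to 436112 counts. Named miRNAs are all member arms, cluster neighbours, seed and sequence relatives, the 3 nearest profiles of each 5p member and cell type markers; members and lists were chosen with earlier results of these data known. The numbers 1 and 2 come from the sample titles. The edgeR comparison and the limma test of 5p to 3p ratios were tested on simulated data. edgeR recovered 73.2% of 2-fold and 90.6% of 4-fold changes, and 3.66% of its calls were false. limma recovered 85% of 4-fold changes, and 5.56% of its calls were false. The simulation gave both groups the same spread, while the nephron progenitor libraries differed more among themselves than the whole kidney libraries. Figures used matplotlib 3.10.9. qPCR, in situ hybridization and Six2 binding were not analysed here.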

Additional observations from a re-analysis of the deposited data

How the results depend on the processing

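Over all results and alternatives, 510 values kept their direction and side of the threshold or, for counts, were within 1.5 times the main count, 34 were no longer past the threshold, 4 newly were, 9 counts moved further than that and 7 values changed sign. Values without a test were taken as kept when their sign held and, for sums, when they moved by less than 1 SD. Where a result changed and nothing else is said, the cause was not tested. The number of members called higher was 5 with the replicate block in the 4 numbered libraries, 6 without the block, and from 6 to 8 with 1 library left out; these fits use fewer libraries. Over all tested microRNAs the same fits called 71 of 487, 58 of 487 and from 75 of 508 to 109 of 510 higher. The differences between replicates 1 and 2 had a correlation of 0.039 between groups across miRNAs, and whether equal numbers mark one of the 3 litters is not given in the sources used here. With the replicate block the log2 fold change of miR-125a-5p was 0.45 and no longer past the threshold, and with 1 library left out it was 0.45 to 0.54. Cluster neighbours called higher were 3 with DESeq2, 3 with more than 10 counts in every library, where 3 were tested, and 3 to 4 with 1 library left out. Over all tested microRNAs DESeq2 called 86 of 525 higher, and the fit with more than 10 counts in every library 66 of 260. Relatives called lower were 0 with library totals and 0 to 4 with 1 library left out. Over all tested microRNAs these fits called 74 of 525 lower with library totals, and from 68 of 511 to 102 of 510 with 1 library left out. The 5p to 3p difference of mir-125b-2 was 0.64 without the trend covariate (adjusted p 0.14 in limma), 0.67 with the replicate block and 0.67 in the same 4 libraries without it (adjusted p 0.059), a fit added after the data were seen; it was 0.60 to 0.67 with 1 library left out, and none of these was past the threshold. miR-99a-3p, at 7 counts or fewer per library, ranged from -0.10 to 0.87 with 1 library left out, and changed sign to -0.10 without MNP1 and without MWK6, to -0.43 with the replicate block and to -0.42 in those 4 libraries without it. miR-10b-3p changed sign to 0.03 with library totals, 0.05 with the replicate block and 0.05 without it.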

Other observations

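Ratios of the members to the stromal markers were chosen after the values were seen, because miR-199a-5p had the same lowest and highest nephron progenitor library as miR-100-5p; they are given without a test. miR-100-5p per miR-199a-5p count was 2.55, 2.58 and 2.68 in the nephron progenitor libraries against 0.934, 1.02 and 1.0 in whole kidney. The ratio was near constant within each group while both miRNAs varied between the nephron progenitor libraries. Choosing miR-199a-5p for its order of libraries favours such a steady ratio. For miR-125b-5p it was 1.17, 1.04 and 1.03 against 0.453, 0.469 and 0.445, and for miR-99a-5p 3.93, 3.52 and 3.37 against 2.35, 2.35 and 2.18. For the chromosome 17 arms the groups overlapped against miR-199a-5p. There miR-99b-5p gave 4.69, 3.0 and 2.69 against 2.72, 2.77 and 3.03, and miR-125a-5p 0.752, 0.455 and 0.379 against 0.468, 0.463 and 0.427. The groups of both arms were apart against miR-143-3p and miR-145a-5p, which were themselves lower in nephron progenitors. Against miR-199a-3p the groups of miR-125a-5p were apart and those of miR-99b-5p overlapped. Against miR-143-3p, the most abundant of the stromal list and itself lower in nephron progenitors, miR-100-5p was not constant, at 0.646, 0.727 and 1.1 against 0.0915, 0.0847 and 0.111. Against miR-145a-5p it was 140.0, 151 and 283 against 15.7, 12.1 and 17.2. Against miR-199a-3p it was 2.05, 2.36 and 3.07 against 0.814, 0.806 and 0.938, and against miR-214-3p 41.4, 44.6 and 46.7 against 17.1, 12.6 and 14.4. miR-214-3p, with fewer counts, also followed miR-125b-5p and miR-99a-5p in nephron progenitors: miR-125b-5p per miR-214-3p count was 18.9, 18.0 and 17.9 against 8.33, 5.8 and 6.41, and miR-99a-5p 63.8, 61.0 and 58.8 against 43.2, 29.1 and 31.3. The chromosome 17 arms did not follow it. miR-99b-5p was at 76.1, 52.1 and 46.8 against 49.9, 34.3 and 43.5, and miR-125a-5p at 12.2, 7.89 and 6.6 against 8.6, 5.72 and 6.14.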
